A study of Drosophila melanogaster with 2 samples.

Results

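The 73 genes of the mitochondrial ribosomal proteins were taken as the protein-coding genes of the Drosophila melanogaster annotation whose symbol begins with mRpL, for the large subunit (47 genes), or mRpS, for the small subunit (26 genes). They are 73 of 13945 protein-coding genes on the 6 chromosome arms of the peak lists. Sites bound by CG12744, a protein assayed as a transcription factor, were read from sequenced chromatin immunoprecipitates of whole embryos, 0 to 24 h old with males and females mixed. The embryos came from a transgenic line that stably carries CG12744 with a green fluorescent protein (GFP) tag at its C-terminus, and an antibody against GFP was used. The study has 1 group, whose biological replicates carry the numbers 2 and 4, and the labels do not say which promoter drives the tagged protein. All embryos carried the tagged protein, and the named control was not used here, so no comparison between conditions was possible. Embryos were used whole, so cells that hold the protein and cells that do not were measured together.

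Mitochondria keep a small genome of their own, and its messenger RNAs are translated by a separate ribosome inside the organelle. The RNAs of this ribosome come from the mitochondrial genome, whereas its proteins are encoded in the nucleus, made in the cytosol and imported. Some of these proteins descend from the ribosomal proteins of bacteria and sit in the conserved core, and others were added in mitochondria and lie mostly at the surface.

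A promoter peak was defined as one whose summit, the position of highest signal in the peak, lay within 500 bp of any annotated start site of the gene. In the list that the authors thresholded for reproducibility between replicates (2758 peaks), 22 of the 73 genes had such a peak. This is 30.1% (exact 95% binomial interval 19.9 to 42%), and 14.4% of all protein-coding genes had one. With each peak given only to the gene of its nearest start, 12 members had a peak (16.4%), compared with 10.5% of all protein-coding genes. Among the 1379 thresholded peaks with the highest signal, 10 members had one (13.7%), compared with 7.72% of all. No interval was computed for these smaller counts, so it is not shown that either share exceeds its background beyond counting error. Each of the 22 genes had 1 peak, and no peak served 2 members. The peak signal below is the deposited value of the authors' peak caller, whose scale is not stated, and it ranks peaks within a list only.

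The 4 highest peaks stood apart from the rest. The peak at mRpS10, a protein of the small subunit's head in bacteria, had a signal of 803 and rank 7 of the thresholded list. Its signal was 427 in replicate 2 (rank 8) and 373 in replicate 4 (rank 7). The peak at mRpL41, a large subunit protein without a bacterial counterpart, had a signal of 749 and rank 11, with 394 in replicate 2 (rank 11) and 358 in replicate 4 (rank 12). The peak at mRpS23, a small subunit protein without a bacterial counterpart, had a signal of 744 and rank 13, with 406 in replicate 2 (rank 10) and 333 in replicate 4 (rank 16). The peak at mRpL23, whose bacterial counterpart lies at the exit of the tunnel through which the new protein leaves, had a signal of 411 and rank 52. Its replicate signals were 204 in replicate 2 (rank 62) and 203 in replicate 4 (rank 48). The other 18 peaks had signals between 70.5 and 148, and the lowest signal of the whole thresholded list was 68.4. Over all thresholded promoter peaks, 40 of 1596 exceeded a signal of 400.

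Sequence around the summits is shown for 2 of these high peaks and for the only peaks that had no start site of another gene within 500 bp, those of mRpL4 and mRpL9. Each stretch is 121 bases of the Release 6 genome (build dm6), written 5′ to 3′ in the direction of the member gene, with the summit at base 61. Capitals mark matches on either strand to the sequences searched near summits, other than TATAAA and GAGAG. In the windows shown, the only such matches are to CACTG or its reverse complement. The mRpS10 window is chr3R:15229468-15229588 on the plus strand and that of mRpS23 is chr2L:13835386-13835506 on the minus strand. The mRpL4 window is chr2L:16329154-16329274 on the minus strand and that of mRpL9 is chr3R:15330572-15330692 on the plus strand. All 4 summits lay between genes.
mRpS10: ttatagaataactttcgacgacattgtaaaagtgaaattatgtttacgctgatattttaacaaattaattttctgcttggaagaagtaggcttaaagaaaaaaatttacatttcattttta
mRpS23: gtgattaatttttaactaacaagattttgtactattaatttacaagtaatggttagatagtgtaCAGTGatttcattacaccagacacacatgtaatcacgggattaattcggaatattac
mRpL4: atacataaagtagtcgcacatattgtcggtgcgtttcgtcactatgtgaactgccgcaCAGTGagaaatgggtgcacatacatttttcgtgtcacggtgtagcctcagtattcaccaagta
mRpL9: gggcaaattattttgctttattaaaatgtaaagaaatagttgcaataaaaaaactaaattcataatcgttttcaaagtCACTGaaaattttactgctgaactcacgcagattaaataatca

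The windows of mRpS10 and mRpL9 are rich in A and T, which was general among the member peaks. The GC content of the 201 bp around the summit had a median of 33.1% over the 22 member peaks (range 26.4 to 53.7%), compared with 36.8% over the 1596 thresholded promoter peaks. It was 29.9% at mRpS10, 35.8% at mRpS23, 33.3% at mRpL23 and 26.4% at mRpL41. The peaks at mRpL53 (53.7%), mRpS16 (48.8%) and mRpL11 (46.3%) had the highest GC content among the members. Peaks at the genes of the cytosolic ribosome, the main ribosome of the cell, had a median of 42.8% (57 peaks).

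**Figure D1:**
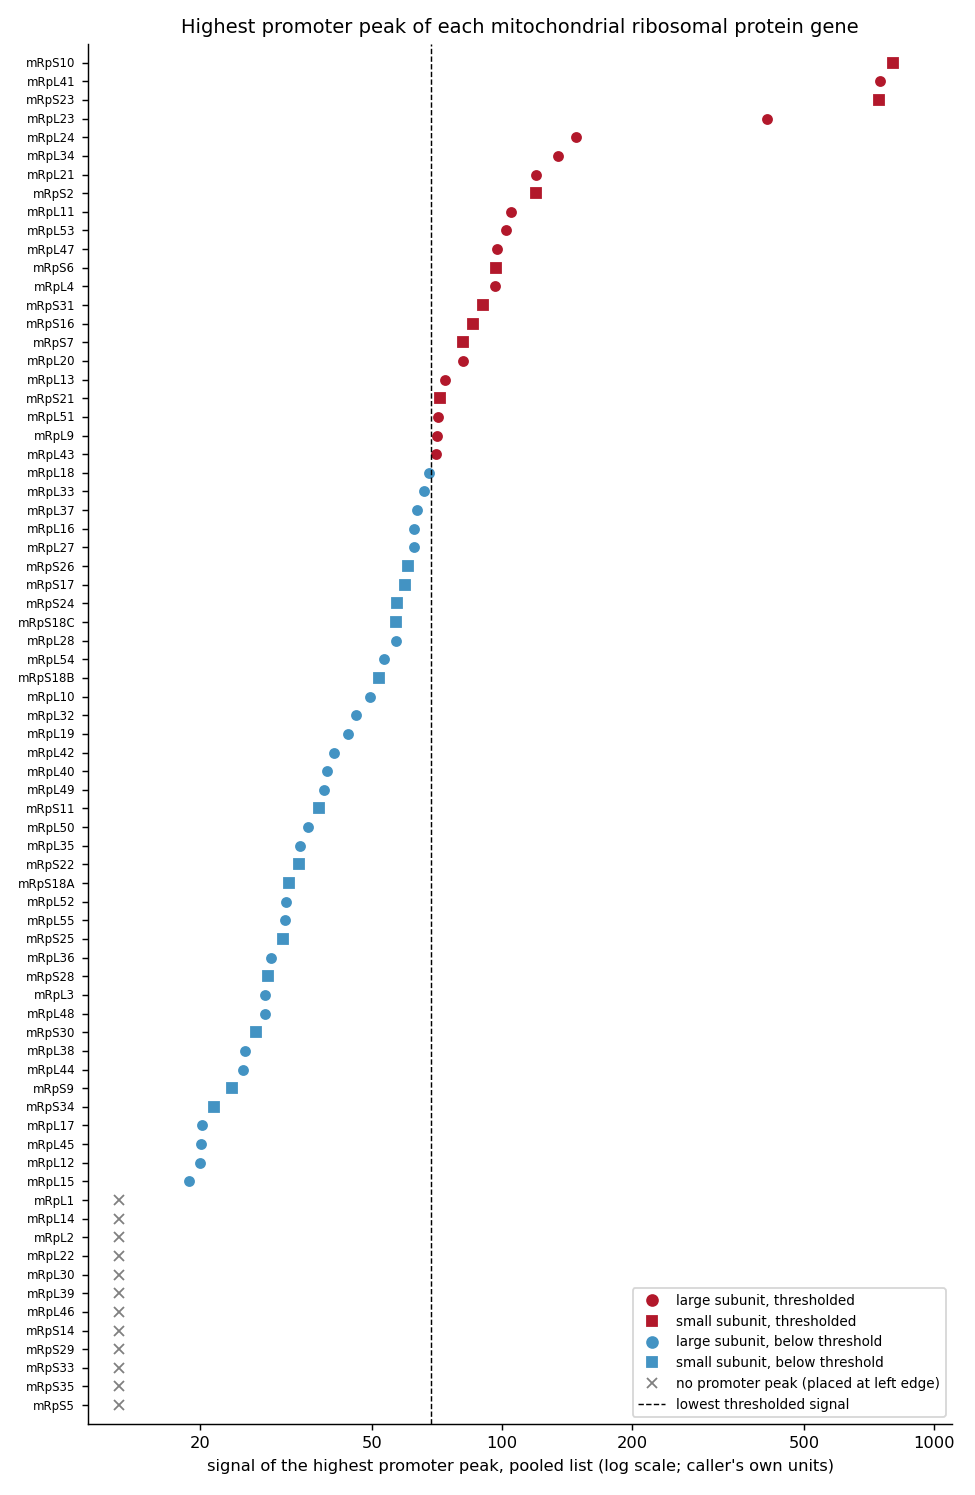
Signal of the highest promoter peak of each of the 73 genes in the pooled list, with crosses for the 12 genes that have none (x axis, log scale, the peak caller's own units), 1 gene per line. Circles are large subunit and squares small subunit genes, red those with a thresholded peak. mRpS10, mRpL41, mRpS23 and mRpL23 lie above a signal of 400, and the other 57 genes with a peak run from 148 down to 18.9 across the threshold (dashed line).

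Both subunits carried peaks. Of the 47 large subunit genes, 14 had a thresholded promoter peak (29.8%, interval 17.3 to 44.9%), and of the 26 small subunit genes, 8 had one (30.8%, interval 14.3 to 51.8%). By the number of the protein, 44 members have a counterpart in the bacterial ribosome and 29 are specific to mitochondria. The first group had 16 genes with a peak (36.4%, interval 22.4 to 52.2%) and the second 6 (20.7%, interval 7.99 to 39.7%). The intervals of the 2 groups overlap widely, and the difference between them was not tested.

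Among the bacterial-type large subunit proteins, the peaks below mRpL23 were led by mRpL24 (signal 148, rank 614), a second protein of the tunnel exit. Then came mRpL34 (135, rank 729), mRpL21 (120, rank 954) and mRpL11 (105, rank 1245), the last a protein of the stalk base, where translation factors bind in bacteria. mRpL47 (97.5, rank 1425) and mRpL4 (96.4, rank 1460) followed, the latter a protein that lines the exit tunnel. The lowest of this group were mRpL20 (81.2, rank 1977), mRpL13 (73.6, rank 2405) and mRpL9 (70.6, rank 2609). mRpL20 and mRpL13 have bacterial counterparts that join the large subunit early in its assembly.

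Among the bacterial-type small subunit proteins, the peaks below mRpS10 were those of mRpS2 (signal 120, rank 957), mRpS6 (96.6, rank 1450), mRpS16 (85.7, rank 1811), mRpS7 (81.3, rank 1965) and mRpS21 (71.8, rank 2516). mRpS7 is a protein of the head of the small subunit in bacteria, as is mRpS10. The mitochondria-specific proteins with a peak, beside mRpL41 and mRpS23, were mRpL53 (102, rank 1299), mRpS31 (90.3, rank 1647), mRpL51 (71, rank 2578) and mRpL43 (70.5, rank 2611). The median signal of the 22 member peaks was 97, and that of all 1596 thresholded promoter peaks was 101. The median of the members includes the 4 highest peaks. The other 18 ran from 70.5 to 148, a range that holds the median of 101.

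The replicates differed in rank below the highest peaks. With a summit within 100 bp counted as a match, 21 of the 22 member peaks were found in the replicate 2 list of 30000 peaks and 20 in that of replicate 4. Both lists held 19 of them, so that 19 of the 73 genes had a matched peak, and 13.7% of all protein-coding genes did. Among genes with a thresholded promoter peak, 19 of 22 members and 1907 of 2010 protein-coding genes had a matched one. The peak of mRpL11 had no match in replicate 2, and those of mRpS31 and mRpS21 had none in replicate 4. Each of these 3 genes still had a promoter peak in that list, with a summit over 100 bp away (highest ranks 1732, 1544 and 3252, in that order). With summits within 200 bp counted, all 22 members had a match in both lists, and with summits within 50 bp 16 did. When the match was sought among the 2758 highest peaks of each replicate, replicate 2 held 21 member peaks, replicate 4 held 13, and both held 12. The same share over all thresholded promoter peaks is not given, so this loss cannot be called particular to the members.

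The 4 highest peaks ranked between 7 and 62 in both replicates. Of the 19 matched peaks, 14 ranked higher in replicate 2 and 5 in replicate 4. The largest gap was at mRpL43, with rank 1595 in replicate 2 (signal 51.9) and rank 10018 in replicate 4 (signal 17.9). mRpS6 had rank 975 in replicate 2 (signal 65) and rank 4950 in replicate 4 (signal 24.5). The opposite order was seen at mRpL34, with rank 1002 in replicate 2 (signal 64) and rank 576 in replicate 4 (signal 71.3). At mRpL4 the ranks were 2029 in replicate 2 (signal 46) and 1186 in replicate 4 (signal 50.3). Across the 19 matched peaks, Spearman's rho between the replicate signals was 0.673, and it was 0.338 over the 15 peaks left without the 4 highest. These values are across peaks that share their libraries and the depth of those libraries, and are given as a description.

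**Figure D2:**
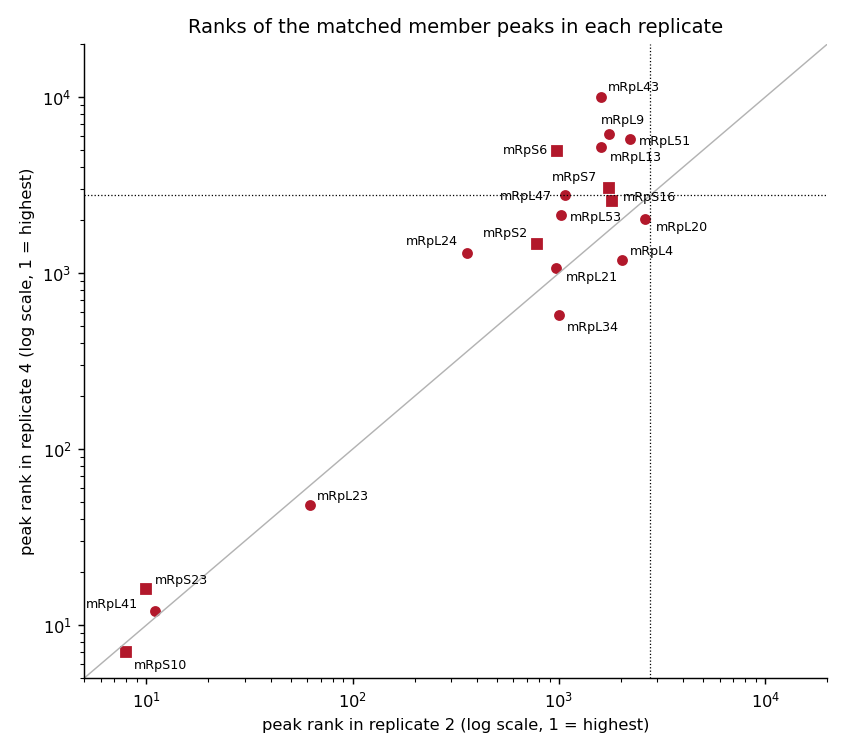
Rank of each of the 19 matched member peaks in replicate 2 (x axis) and replicate 4 (y axis), both on log scales with 1 the highest; circles are large and squares small subunit genes, dotted lines stand at rank 2758 and the grey line marks equal ranks. The 4 highest peaks lie near the line at ranks 7 to 62, and 14 of 19 points lie above it, with a lower place in replicate 4.

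Counted by gene over all ranks, 65 of the 73 genes had a promoter peak in the replicate 2 list and 56.2% of all protein-coding genes had one. In the replicate 4 list 53 members had a promoter peak, and 51% of all protein-coding genes did. Within the 2758 highest peaks, 22 members had one in replicate 2 (14.6% of all protein-coding genes) and 17 members had one in replicate 4 (13.7% of all protein-coding genes). The member share was therefore 30.1% from replicate 2 and 23.3% from replicate 4, each above its own background.

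The pooled list of 30000 peaks, most of it below the threshold, placed a promoter peak at 61 of the 73 genes (83.6%, interval 73 to 91.2%), and at 54.7% of all protein-coding genes. Of these 61 members, 36.1% also had a thresholded peak, compared with 26.3% of the protein-coding genes with a pooled peak. The members just below the threshold were mRpL18 (signal 67.6, rank 2816 of the pooled list), mRpL33 (65.9, rank 2966), mRpL37 (63.6, rank 3166), mRpL16 (62.5, rank 3271), mRpL27 (62.4, rank 3287) and mRpS26 (60.7, rank 3456). The members just inside it were mRpL51, mRpL9 and mRpL43, with signals of 71, 70.6 and 70.5. The line between genes with and without a peak therefore fell within a close run of signals.

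The other 33 members with a pooled peak had signals from 59.7 down to 18.9, at ranks 3578 to 26398. Over the 39 members with a peak below the threshold the median signal was 35.5, and over all protein-coding genes of that kind it was 34.4. No pooled promoter peak was listed for 12 members. Of these, mRpL22 and mRpS5 had a promoter peak in both replicate lists, 6 had one in a single replicate list, and mRpL30, mRpL39, mRpS29 and mRpS33 had none in any list.

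The share of members with a peak varied between chromosome arms, but each arm holds few members and the exact intervals of the arms overlap. Thresholded promoter peaks were found at 7 of 12 members on 2L (58.3%), 5 of 12 on 2R (41.7%), 5 of 17 on 3L (29.4%), 5 of 21 on 3R (23.8%) and 0 of 11 on X, where the exact interval reaches 28.5%. The intervals were 27.7 to 84.8% on 2L, 15.2 to 72.3% on 2R, 10.3 to 56% on 3L and 8.22 to 47.2% on 3R. Within the 2758 highest peaks, 2L had 7 members with a peak in replicate 2 and 4 in replicate 4, and X had 0 and 1. Over all protein-coding genes the thresholded share was between 12.1 and 16.3% on each of these arms, with 12.1% on X. The pooled list had a promoter peak at 7 of the 11 members on X (63.6%), close to the 57.3% of all protein-coding genes on X, including mRpL33 and mRpL16, both just below the threshold. Without the X chromosome, 22 of 62 members had a thresholded peak (35.5%, interval 23.7 to 48.7%), and 14.8% of the other arms' protein-coding genes had one.

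The summits lay upstream of the members and, in most cases, between a member and a second gene. Of the 22 summits, 21 (95.5%) were upstream of the nearest member start. Median positions here are over upstream and downstream summits together, and that of the 22 was 140 bp upstream. Measured from the nearest start of any gene, 90.9% of the member summits were upstream, compared with 80.1% of all thresholded promoter peaks. The median positions were 100 bp upstream for the members and 88 bp upstream for all. The 1 member summit not upstream of its own gene's nearest start was that of mRpL23 (3L, position 2373625). It lay 53 bp downstream of that start, in the 5′ UTR of the gene. This gene has several starts, and another of them lay on the opposite side of the summit. Peaks at the cytosolic ribosomal protein genes, measured from those genes' own starts, had a median distance of 29 bp upstream, and 73.7% of them were upstream. By annotation 18 member summits were between genes, 3 in a 5′ UTR and 1, at mRpL53, in an intron of AGO1.

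Most members have a divergent neighbour, here a gene of any class on the other strand whose start lies upstream within 1000 bp. This was the case for 58 of the 73 members (79.5%), compared with 39.6% of all protein-coding genes and 63.2% of the cytosolic ribosomal protein genes. Among members with a thresholded peak 20 of 22 had such a neighbour (90.9%), and among those without one 38 of 51 did (74.5%). Of all protein-coding genes with a thresholded peak, 67.2% had one. Read the other way, members with a divergent neighbour had a peak at 20 of 58 genes (34.5%, interval 22.5 to 48.1%), compared with 24.4% of the 5526 protein-coding genes with such a neighbour. Members without one had a peak at 2 of 15 genes (13.3%, interval 1.66 to 40.5%), compared with 7.84% of the 8419 protein-coding genes without one. Within each class both background shares lie inside the members' intervals, whereas the share of all protein-coding genes, 14.4%, lies below the interval of the 73 members. The paired arrangement was thus measured beside the members' share, and its part in it was not tested.

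The share was similar among the members with a single start site. These were 67 members (91.8%), compared with 73.5% of all protein-coding genes. Of these 67, 20 had a thresholded peak (29.9%, interval 19.3 to 42.3%), compared with 10.8% of the 10246 protein-coding genes with 1 start.

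**Figure D3:**
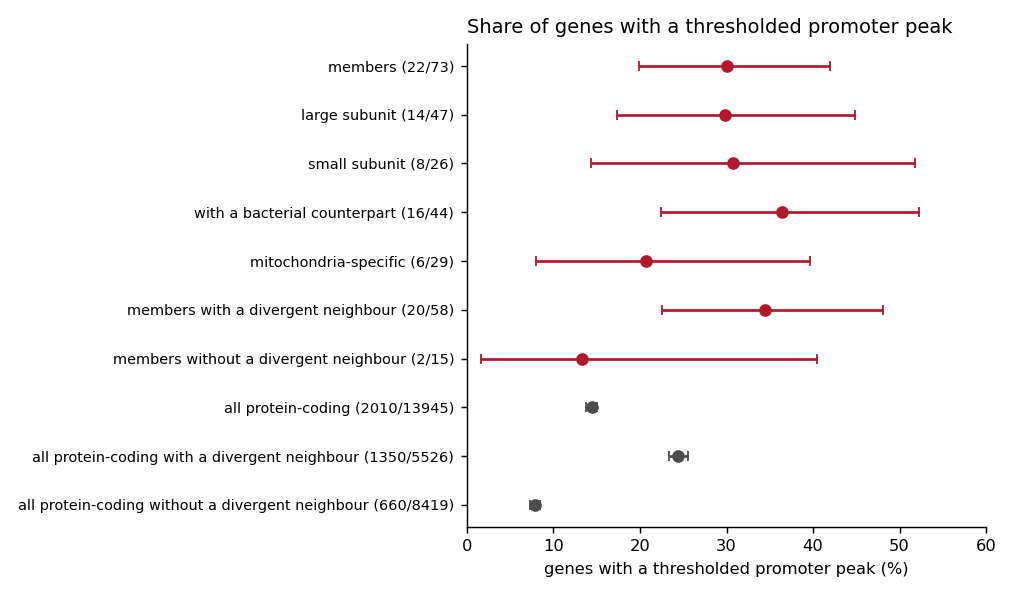
Share of genes with a thresholded promoter peak (x axis, percent) for the members, their subgroups and all protein-coding genes; points are shares, bars exact 95% binomial intervals, and counts stand in brackets. The 73 members lie at 30.1% and all protein-coding genes at 14.4%, but among genes with a divergent neighbour the shares are 34.5% and 24.4%, the latter inside the members' bar.

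In 18 of the 22 peaks (81.8%, interval 59.7 to 94.8%) the summit lay within 500 bp of starts of both the member and its divergent neighbour. Of all protein-coding genes with a thresholded promoter peak, 57% shared one in this way, as did 27 of the 53 cytosolic ribosomal protein genes with a peak (50.9%). The closest starts of the member and its neighbour were 24 to 492 bp apart, with a median of 268 bp, and 15 of the 18 summits lay between this closest pair. With all annotated starts considered, each of the 18 summits had a start of the neighbour on one side and a start of the member on the other. For 12 peaks the nearest start was that of the member, ties included, and for 10 it was that of the neighbour. Which of the genes a shared peak belongs to cannot be told apart from these lists.

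The neighbours had varied functions. The mRpS10 summit (3R, position 15229528) lay 137 bp upstream of mRpS10 and 120 bp from the start of Art3, an arginine methyltransferase gene. The mRpS23 summit (2L, position 13835446) lay 374 bp upstream of mRpS23 and only 118 bp from the start of CenG1A, which encodes a GTPase-activating protein. The mRpL23 summit lay 103 bp from a start of CG9004. Further down the list, mRpS2 shared its peak with Mon1, a gene of vesicle traffic whose start lay 30 bp from the summit, and mRpL24 with betaggt-I, which encodes a subunit of a protein prenylation enzyme and starts 43 bp from it. The summits of these pairs were much nearer to the neighbour than to the member, which lay 192 bp away at mRpS2 and 175 bp at mRpL24.

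Regulators of the cell cycle, chromatin and RNA silencing were among the other neighbours. mRpS7 shared a peak with Cdk1, the main mitotic kinase (173 bp from mRpS7 and 227 bp from Cdk1). mRpL21 shared one with rept, a chromatin-remodelling ATPase (180 and 99 bp), and mRpL47 with Kdm3, a histone demethylase, and CG8176 (37 and 62 bp). mRpS16 shared one with cg, a zinc finger protein (39 and 58 bp), and mRpL53 one with AGO1, an Argonaute protein of the microRNA pathway, as well as with CG33155 on the same strand (59 bp from mRpL53 and 111 bp from AGO1). HtrA2, a mitochondrial protease gene, was the neighbour of mRpL11 (262 and 116 bp).

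The remaining pairs were mRpL34 with Dg, the dystroglycan gene, mRpS6 with Cip4, mRpS31 with hzg, mRpL20 with Icmt, a gene of protein methylation, mRpS21 with Droj2, a DnaJ-type chaperone gene, mRpL51 with Uba4, and mRpL43 with CG30183. Their summits lay 89 to 300 bp upstream of the member. The peaks of mRpL41 (2R, summit at position 15217759) and mRpL13 were shared with no divergent gene. The mRpL41 summit lay 142 bp upstream of its start, and a long non-coding RNA gene on the same strand, lncRNA:CR44463, started 436 bp away. mRpL13 and CG10602 begin at the same position on the same strand, 102 bp from the summit. mRpL4 and mRpL9, with summits 82 and 106 bp upstream, had no other gene's start within 500 bp.

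**Figure D4:**
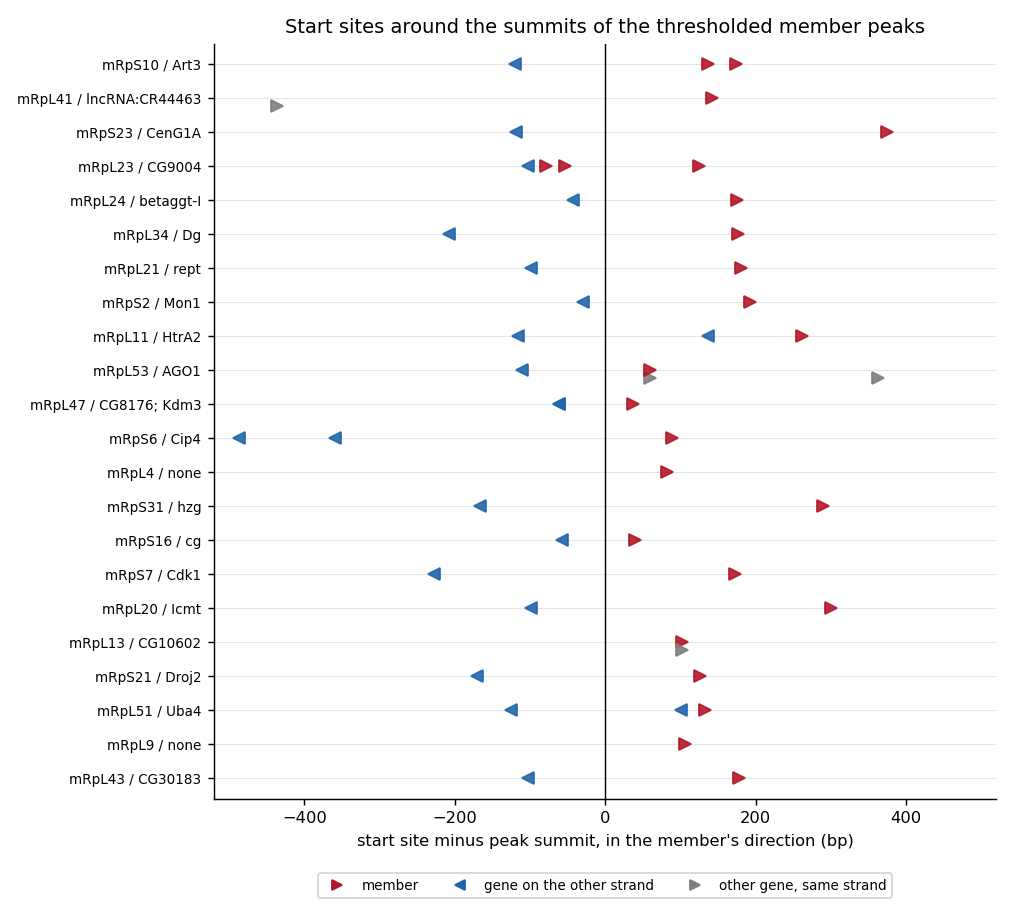
Start sites around the summits of the 22 thresholded member peaks, ordered by signal; the x axis gives each start minus the summit in bp, in the member's direction, with the member in red, genes on the other strand in blue and other genes on the same strand in grey, drawn slightly lower. In all 18 peaks shared with a divergent neighbour the summit at 0 has a blue start on its left and a red start on its right.

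Sequence elements of core promoters were sought, in either orientation, in windows reaching 100 bp to each side of a summit and in promoters, from 250 bases before to 50 bases after each start. The element CAGCTG, an E-box found in Drosophila core promoters, was held by 6 of the 22 member windows (27.3%) and 12% of the 1596 windows of thresholded promoter peaks. In the promoters it was more frequent among members, with a peak or without. It was present in 15 of the 25 promoters of members with a thresholded peak (60%), in 29 of the 55 promoters of the other members (52.7%) and in 17.9% of the 19253 promoters of all protein-coding genes. The E-box was thus a feature of the members' promoters that was about as common without a peak as with one.

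The E-boxes of the members lay close to the start. Over the 44 member promoters that held it, the copy nearest to the start lay at a median of 2.5 bp downstream of the start, and 41 of them (93.2%) lay within 100 bp of it. Over all protein-coding promoters with an E-box, the median was 50.5 bp upstream, and 65.8% lay within 100 bp. Measured from the summits, 14 of the 22 peaks had an E-box within 300 bp, at a median of 105 bp and a range of 24.5 to 210.5 bp, and at 1 peak it lay within 50 bp. The E-box nearest to the summit was on the member's side in 8 of these peaks and on the far side in 6.

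Sites of 30 bases are shown for 5 of the 6 member windows with an E-box within 100 bp of a summit. The element is in capitals. In 4 of the 5 shown the element lies on the side of the summit away from the member, so these 4 are not copies at the member's own start. They are from build dm6, written 5′ to 3′ in the direction of the member. The mRpL24 site is chr2L:4945581-4945610 on the minus strand, the mRpS2 site is chr2L:4850647-4850676 on the minus strand, and the mRpL51 site is chr2L:8517590-8517619 on the minus strand. The mRpL11 site is chr3R:14511537-14511566 on the plus strand and the mRpL47 site is chr3R:9515873-9515902 on the minus strand.
mRpL24: gtccacaaatagCAGCTGcttcttcttacc
mRpS2: actaaatcattaCAGCTGgaatggatttcc
mRpL11: aggcaatgcaaaCAGCTGttggccgcgatg
mRpL47: ttgttattgcttCAGCTGttttgttcggtc
mRpL51: tctgactgcaatCAGCTGatgaatgtcgat
The centre of the element lay 59.5 bp from the summit at mRpL24, on the side of betaggt-I, which started 43 bp from the summit. At mRpS2 it lay 50.5 bp, at mRpL11 24.5 bp and at mRpL51 92.5 bp from the summit, again on the side away from the member. On that side Mon1 started 30 bp and HtrA2 116 bp from the summit, and a start of Uba4 lay beyond the element. At mRpL47 it lay 57.5 bp away on the member's side, where the member started 37 bp from the summit. The sixth window with this element was that of mRpL53. There it lay 77.5 bp away on the member's side, and the member started 59 bp from the summit. A related E-box, CACGTG, the site of Myc, was found in the window of mRpL23 alone (4.55% of member windows and 2.76% of all windows).

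The sequence TATCGATA, the site of the factor Dref, was in 0 of the 22 member windows and in 7.64% of the windows of all thresholded promoter peaks. In promoters it was present in 3 of 25 of members with a peak (12%), 13 of 55 of members without one (23.6%) and 7.98% of all. A match or the lack of one describes only the letters of the window searched. Core promoter motif 7, CANCNCTA, was in 2 windows, those of mRpL47 and mRpL43 (9.09%, and 17.2% of all windows). Motif 1, the site of the factor M1BP, was in 0 member windows (2.69% of all windows), and motif 6 was in 1, that of mRpL41 (1.07% of all windows). TATAAA was in 7 member windows and GAGAG in 3, or 31.8% and 13.6%, compared with 31.8% and 22.5% of all windows. CCGGAAG, an Ets-type core, was in 0 member windows (1% of all windows) and in 0 of the members' promoters (1.06% of all).

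**Figure D5:**
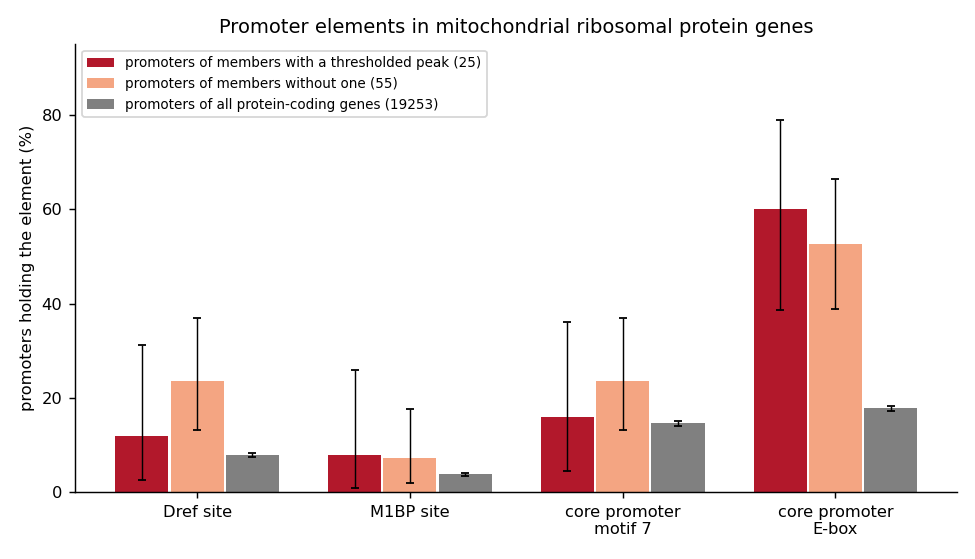
Share of promoters (y axis, percent) that hold each of 4 elements, for members with a thresholded peak (25 promoters), members without one (55) and all protein-coding genes (19253); bars are shares and lines exact 95% binomial intervals. The E-box stands at 60% and 52.7% in both member groups and at 17.9% in all promoters, whereas Dref sites stand at 12%, 23.6% and 7.98%. Promoters are counted by start site, and the intervals treat them as independent.

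The sequence CAACACTG and the shorter CACTG, which lies within it, had been singled out in an earlier analysis of these same peaks. CAACACTG was in 3 of the 22 member windows, those of mRpS2, mRpL53 and mRpL9 (13.6%, and 6.08% of all windows). In promoters it was present in 4 of 25 of members with a peak (16%), 3 of 55 of the other members (5.45%) and 3.3% of all. CACTG was in 10 member windows (45.5%, and 46.8% of all windows). Among the 4 highest peaks only the window of mRpS23 held CACTG, and none held CAACACTG. The mRpS2 site is chr2L:4850628-4850657 on the minus strand and the mRpL9 site is chr3R:15330689-15330718 on the plus strand. Both are shown, 5′ to 3′ in the direction of the member and with the 8 bases in capitals, to give the bases around a match.
mRpS2: aatggatttccCAACACTGtccgaagcaga
mRpL9: atcatatctggCAACACTGcaaactggctg
The centre of the 8 bases lay 31.5 bp from the summit at mRpS2 and 71.5 bp at mRpL9.

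Other genes of mitochondrial gene expression were examined from lists of symbols. Of 28 annotated genes for translation factors, transcription and RNA processing, DNA replication and 2 ribosomal proteins under other symbols, 3 had a thresholded promoter peak (10.7%, interval 2.27 to 28.2%), and 20 had a pooled peak. The thresholded share is near the 14.4% of all protein-coding genes, and 54.7% of all had a pooled peak. tko and bonsai, the ribosomal proteins under other symbols, had none in the thresholded list. The highest of the peaks was at PNPase, an RNA-degrading enzyme of mitochondria, with a signal of 763 and rank 10. It ranked 12 in replicate 2 and 6 in replicate 4, and its summit lay 81 bp downstream of the start with no other gene's start within 500 bp. The others were at mtSSB, which binds single-stranded mitochondrial DNA (signal 156, rank 539), and at mRF1, a release factor (signal 74.1, rank 2386). Of 12 translation factor genes, mRF1 was the 1 with a peak. Among 15 protein import genes, Tom7 (signal 124), Hsc70-5 (76.5) and Tim10 (75.9) had peaks (20%, interval 4.33 to 48.1%). For Tom7 no corresponding peak was recorded in replicate 2, and it ranked 810 in replicate 4. Hsc70-5 ranked 1092 in replicate 2 and 27074 in replicate 4, and Tim10 3491 and 2714. Each of these 3 peaks, and that of mRF1, also had a start of another gene within 500 bp. The intervals of the list as a whole and of the import genes include the 14.4% of all protein-coding genes.

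The cytosolic ribosomal protein genes had a higher share and, with all peaks counted, a narrower range of signals. Of 87 such genes, 53 had a thresholded promoter peak (60.9%, interval 49.9 to 71.2%), and the interval lies above that of the members. The 57 peaks at these genes had a median signal of 127, a minimum of 70.4 and a maximum of 353, below each of the 4 highest member peaks. The other 18 member peaks, from 70.5 to 148, had a narrower range than the cytosolic ones. The cytosolic summits lay nearer to the start, as given above. The members thus differed from these genes in share, in position and, through the 4 highest peaks, in the spread of heights. No test of these differences was made.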

How the data were processed

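Peak lists in narrowPeak format were deposited for 2 replicates. Per the file headers and labels, they comprise 1 list per replicate, 1 pooled list and 1 list thresholded by the irreproducible discovery rate. The deposited signal of each peak is the value that the authors' peak caller gave. Its scale is not given in the sources used here, nor are the names of the caller and aligner, so signals only describe and rank peaks within a list. The deposited summit offset, another column of the authors' lists, gave the summit position. Read depth is unknown.

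The dm6 lists were used with the Release 6 sequence and the Ensembl 115 annotation of the same build. The dm3 lists were not used. Coordinates are 1-based. Intervals are exact 95% Clopper-Pearson intervals, treat genes, peaks or promoters as independent and cover counting error only. Replicate summits within 100 bp were matched, and motif windows spanned 201 bp and promoters 300 bp. A cytosolic ribosomal protein gene has a symbol that begins with RpL or RpS, without those ending in "-like". Members count as having a bacterial counterpart by protein number. No tests were run, since the study has 1 group.

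The members and lists were chosen with earlier results of these data known. The genes named are each member with a thresholded promoter peak, the 6 members next below it, genes that share those peaks, and thresholded genes of the mitochondrial lists. Of 44 symbols written for mitochondrial gene expression, 28 were found in the annotation outside the members, and of 16 for protein import, 15 were. Alternatives were other windows, peak sets, replicates and gene assignments. Computation was done in Python 3.11.15 with numpy 2.4.6 and scipy 1.17.1, and the counting was tested on simulated data.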

Additional observations from a re-analysis of the deposited data

How the results depend on the processing

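Of the values recomputed under other settings, 49 stayed within limits of 1.5 times for a count, the exact interval for a share and 1 SD over the 22 member peaks for the median signal, and 8 moved. The SD includes the highest peaks, with signals of 411 to 803. It is therefore so wide that the median could hardly move by this rule, and its place among the 49 is no sign of stability. The TATCGATA count of 0 could not fall under settings that keep fewer peaks or narrow the search, so it is no such sign either. A fall from 3 to 2, as for CAACACTG and the mitochondrial gene expression genes under some settings, also stayed within the limit. The median signal was 97, and it was 57.1 without replicate 4 and 47.9 without replicate 2, from lists whose signals need not share a scale. Members with a thresholded promoter peak numbered 10 among the 1379 thresholded peaks with the highest signal (13.7%, and 7.72% of all protein-coding genes) and 12 when each peak was given to its nearest start alone (16.4%, and 10.5% of all). Intervals were not computed for these shares. With each replicate left out in turn they numbered 17 to 22, that is 17 from replicate 4 alone and 22 from replicate 2 alone. Members whose thresholded peak was matched in both replicates numbered 9 of the 10 among those 1379 peaks and 11 of the 12 by nearest start. Among the 2758 highest peaks of each replicate they numbered 12 of 22. Peaks shared with a divergent neighbour numbered 9 of 10 among those 1379 peaks and 8 of 12 by nearest start, so these counts fell with the number of member peaks kept. TATCGATA was near 2 of the 22 summits when the search reached 200 bp. For matching, sharing and TATCGATA the shares over all genes or peaks under these settings are not given. These settings keep fewer peaks, fewer genes per peak or wider windows by construction. No paired analysis was possible because the study has 1 group and no result comes from a test. The depth of the libraries is not known, so it cannot be said which members without a peak were missed for lack of reads.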
